A study of Mus musculus with 9 samples.

Results

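The mitochondrial ribosomal proteins are the proteins that, with ribosomal RNA made inside the organelle, build the ribosome of the mitochondrion. They were taken here as the genes whose symbol begins with Mrpl (large subunit) or Mrps (small subunit) followed by a digit, without pseudogene symbols. The rule found 78 of the 19058 genes in the expression table, 49 Mrpl and 29 Mrps genes, and all 78 had FPKM values high enough to be tested. Their values were measured by RNA sequencing of primary Leydig cells, the hormone-producing interstitial cells of the testis, from wild-type mice. The groups were 3 libraries from cells exposed to TPhP (triphenyl phosphate, an organophosphate flame retardant and plasticiser), 3 from cells exposed to DPhP (diphenyl phosphate, which has 1 phenyl ester fewer and is a metabolite of TPhP) and 3 from control cells. The sources used here give no dose, no exposure time and neither age nor strain of the mice. They also do not tell whether replicate libraries stem from different cultures or mice, so a p-value here speaks of the spread between libraries only, which could be technical.

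Mitochondria keep a small genome that codes for core subunits of the respiratory chain and the ATP synthase, and the mitochondrial ribosome translates only those messages. All of its proteins are encoded in the nucleus, made on cytosolic ribosomes and imported. Many of them descend from bacterial ribosomal proteins and the others were added during the evolution of mitochondria. In Leydig cells the first step of steroid synthesis, the cleavage of cholesterol to pregnenolone, takes place on the inner mitochondrial membrane and depends on a working respiratory chain.

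Levels are given as FPKM, which divides fragments by transcript length and by the library's size, in the order in which the libraries of a group are numbered. A gene was called changed when limma, fitted to log2(FPKM + 1) of the 12369 genes that reached 1 FPKM in 3 or more libraries, gave a Benjamini-Hochberg adjusted p under 0.05. Fold changes are on that log2 scale throughout. The sum of FPKM over all genes was 419107 to 422363 in TPhP, 398680 to 401930 in DPhP and 421963 to 428928 in control libraries; read depth is unknown. Markers of cell types moved with DPhP: the summed FPKM of 8 Leydig cell markers was 1759 to 1828 in TPhP, 328 to 343 in DPhP and 1670 to 1785 in control libraries, with Cyp17a1 and Hsd17b3 under 0.5 FPKM in every library. The sum of 5 peritubular myoid markers was 583 to 618 in TPhP, 1528 to 1585 in DPhP and 592 to 660.4 in control libraries. The sum of 5 fibroblast markers was 2853 to 2934, 5129 to 5292 and 3117 to 3155 FPKM in the same groups, and that of 8 germ cell markers, of which Stra8 and Acr were under 0.5 FPKM throughout, 15.2 to 21.8, 3.88 to 4.14 and 18.1 to 24.9 FPKM. Sums of Sertoli, macrophage and endothelial markers were also highest in DPhP libraries. In TPhP, DPhP and control libraries they were 40.6 to 42.2, 65.4 to 68.65 and 43.0 to 47.1 FPKM for Sertoli cells. For macrophages they were 216.1 to 222.6, 252.7 to 263.4 and 216.1 to 232.9 FPKM, and for endothelium 11.9 to 12.6, 31.3 to 32.3 and 11.2 to 12.05 FPKM. The part of these shifts in the DPhP results was not tested, and in bulk RNA fewer cells of a type and less RNA per cell cannot be told apart.

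All 78 genes were detected in control cells, with a median of the control means of 21.9 FPKM and a range from 4.09 to 119 FPKM. The 3 highest were Mrpl33, Mrps21 and Mrpl30, members of bacterial ribosomal protein families. Mrpl33 had 106.9, 115.4 and 110.0 FPKM in TPhP libraries, 78.7, 90.03 and 93.8 FPKM in DPhP libraries and 120.6, 114.9 and 122.3 FPKM in control libraries. Its DPhP libraries were the lowest, below every other library, while the TPhP and control libraries overlapped. Mrps21 had 73.4, 79.4 and 71.9 FPKM in TPhP libraries, 63.5, 69.04 and 63.1 FPKM in DPhP libraries and 75.1, 76.8 and 71.9 FPKM in control libraries, and its DPhP libraries were again below all others. Mrpl30 had 60.4, 55.9 and 57.4 FPKM in TPhP libraries, 52.9, 56.2 and 50.7 FPKM in DPhP libraries and 58.4, 60.2 and 54.95 FPKM in control libraries, and here all 3 groups overlapped.

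The 3 lowest were Mrpl19, Mrpl35 and Mrps25. Mrpl19, at 4.42, 4.11 and 4.11 FPKM in TPhP, 4.58, 4.61 and 4.86 FPKM in DPhP and 3.95, 4.18 and 4.13 FPKM in control libraries, lay highest in DPhP without overlap. Mrps25 had 6.45, 6.05 and 5.80 FPKM in TPhP libraries, 6.83, 6.47 and 6.69 FPKM in DPhP libraries and 6.10, 6.30 and 7.28 FPKM in control libraries, so the control libraries overlapped both exposures while the TPhP libraries lay just below those of DPhP. Antisense exons of Nr2c2 cover 69.8% of the exon bases of Mrps25, and those of Gcfc2 cover 36.0% of those of Mrpl19; whether the counting used strand is not stated, so reads of the pairs cannot be told apart.

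Both subunits were lowest in the DPhP libraries, and their proportion was similar in all groups. The mean over the 49 large-subunit genes was 24.9, 24.8 and 24.5 FPKM in TPhP, 22.0, 22.1 and 22.0 FPKM in DPhP and 25.6, 25.7 and 25.01 FPKM in control libraries. The mean over the 29 small-subunit genes was 23.2, 23.0 and 22.2 FPKM in TPhP, 19.8, 20.2 and 19.8 FPKM in DPhP and 23.0, 23.4 and 22.3 FPKM in control libraries. For each subunit the DPhP libraries lay below all others, and the TPhP and control libraries overlapped for the small subunit but not for the large one. The ratio of the large to the small mean was 1.07 to 1.10 in TPhP, 1.09 to 1.11 in DPhP and 1.10 to 1.12 in control libraries, so the groups overlapped. Together the 78 genes held 0.440 to 0.450% of the FPKM sum in TPhP, 0.411 to 0.415% in DPhP and 0.444 to 0.453% in control libraries.

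**Figure D1:**
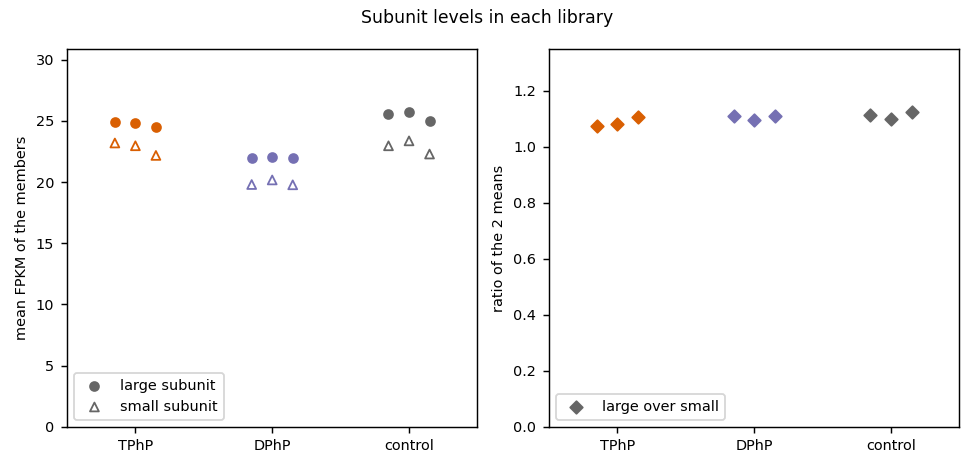
Mean FPKM of the large-subunit genes (circles) and small-subunit genes (triangles) in each library at left, and the ratio of the 2 means at right, for TPhP, DPhP and control (1 point per library). Both means are lowest in the 3 DPhP libraries, at 22.0 to 22.1 FPKM and 19.8 to 20.2 FPKM, while the ratio stays between 1.07 and 1.12 in all 9 libraries.

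Exposure to TPhP left the mitochondrial ribosomal protein genes close to control. None of the 78 was called by limma, where 6.22% of all tested genes were called (2.58% higher and 3.64% lower). At an unadjusted p under 0.05 there were 9 of 78 (11.5%), against 21.9% of all tested genes. The TPhP and control libraries did not overlap for 4 members that were higher and 5 that were lower with TPhP, while they did not overlap for 27.3% of all tested genes. Fold changes ran from -0.19 for Mrps35 to 0.13 for Mrpl53, with a median of -0.01 against 0.01 for all tested genes. The 95% intervals of the 78 genes reached at most from -0.34 to 0.32, so larger changes than these lay outside every interval.

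The gene with the largest TPhP rise, Mrpl53, codes for a large-subunit protein without a bacterial relative. It had 25.6, 26.5 and 24.9 FPKM in TPhP libraries, 22.9, 22.98 and 23.03 FPKM in DPhP libraries and 23.3, 24.9 and 21.9 FPKM in control libraries. All TPhP libraries were above all control libraries, with a fold change of 0.13 (95% interval 0.04 to 0.23, adjusted p = 0.0961) in limma. Exons of Gm42688 on the same strand cover 88.0% of its exon bases and none of its sequence is unique, so its level is uncertain. Mrpl50, a further large-subunit gene, had 15.4, 15.96 and 14.9 FPKM in TPhP libraries, 15.7, 14.8 and 15.7 FPKM in DPhP libraries and 13.96, 14.5 and 13.8 FPKM in control libraries, and here TPhP and DPhP libraries both lay above control, with a TPhP fold change of 0.12 (95% interval 0.04 to 0.21, adjusted p = 0.0941). Among the decreases, Mrpl38 averaged 16.9 ± 0.387 FPKM in TPhP, 14.4 ± 0.853 in DPhP and 18.6 ± 0.357 in control (SD, n = 3 each), with a TPhP fold change of -0.13 (95% interval -0.22 to -0.04, adjusted p = 0.0941). Leaving out single libraries moved the count of TPhP calls between 0 and 1: without TPhP 3 Mrpl24 was called lower (-0.22), without DPhP 2 Mrps35 was called lower (-0.19), and without control 2 Mrpl53 was called higher (0.18). After removal of trends with GC content and transcript length, Mrpl53 was called higher (0.16) and none lower, against 2.39% and 3.61% of all genes, and with libraries scaled to a common FPKM sum none was called, against 3.47% higher and 2.89% lower.

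Exposure to DPhP moved most of these genes, mostly down. Of the 78, 13 rose and 42 fell, 70.5% in all, while 71% of all tested genes were called (33.1% higher and 37.9% lower). At an unadjusted p under 0.05 there were 58 (74.4%), against 73.2% of all genes. The total share called was therefore that of the background, and the split was not: 16.7% of the members were higher and 53.8% lower. The median fold change was -0.15 for the members and -0.02 for all tested genes. Of the 78 members, 9 fell by at least 0.5 on the log2 scale, a share close to the 11.9% of all genes. None rose by as much, against 7.97% of all genes. DPhP and control libraries did not overlap for 12 members that were higher and 38 that were lower, where 34.3% and 39.1% of all genes did not. The remaining 23 members had fold changes from -0.17 (Mrpl46) to 0.13 (Mrps27) and did not pass the test. The count of rises depended on single libraries: without control 1, 7 members were called higher. Some rises were also lost without DPhP 1, DPhP 2, DPhP 3 or control 3.

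The calls depended on the scaling of the table. With each library rescaled to the same FPKM sum, which moves all genes alike, 19 members (24.4%) were called higher and 32 (41%) lower, where 42.2% and 30.1% of all genes were, and the median was -0.07 against 0.06 for all genes. The members thus still lay below all genes, and the medians of both had moved up. After removal of lowess trends of each library with GC content and transcript length, a correction added after seeing the data, 20 members were called higher and 23 lower, where 33.2% and 32.8% of the 12217 genes with a transcript were, and the median was -0.04 against 0.00. As shares of the members these were 25.6% higher and 29.5% lower, both under the shares of all genes. After the correction the members thus showed no excess of called decreases over all genes. Of the genes that fell before the correction, Mrpl34 (-0.21 before, 0.26 after), Mrps21 (-0.19 and 0.20) and Mrps34 (-0.25 and 0.18) were called higher after it. Calls of 3 of the 13 rises (Mrpl16, Mrpl35 and Mrpl42) and 18 of the 42 falls held in the same direction in each of the 21 alternative fits that tested the gene; Mrpl35, which averages under 5 FPKM, was tested in 20. A minimum fold change of 0.5, a stricter threshold on the same fit, is not among these.

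**Figure D2:**
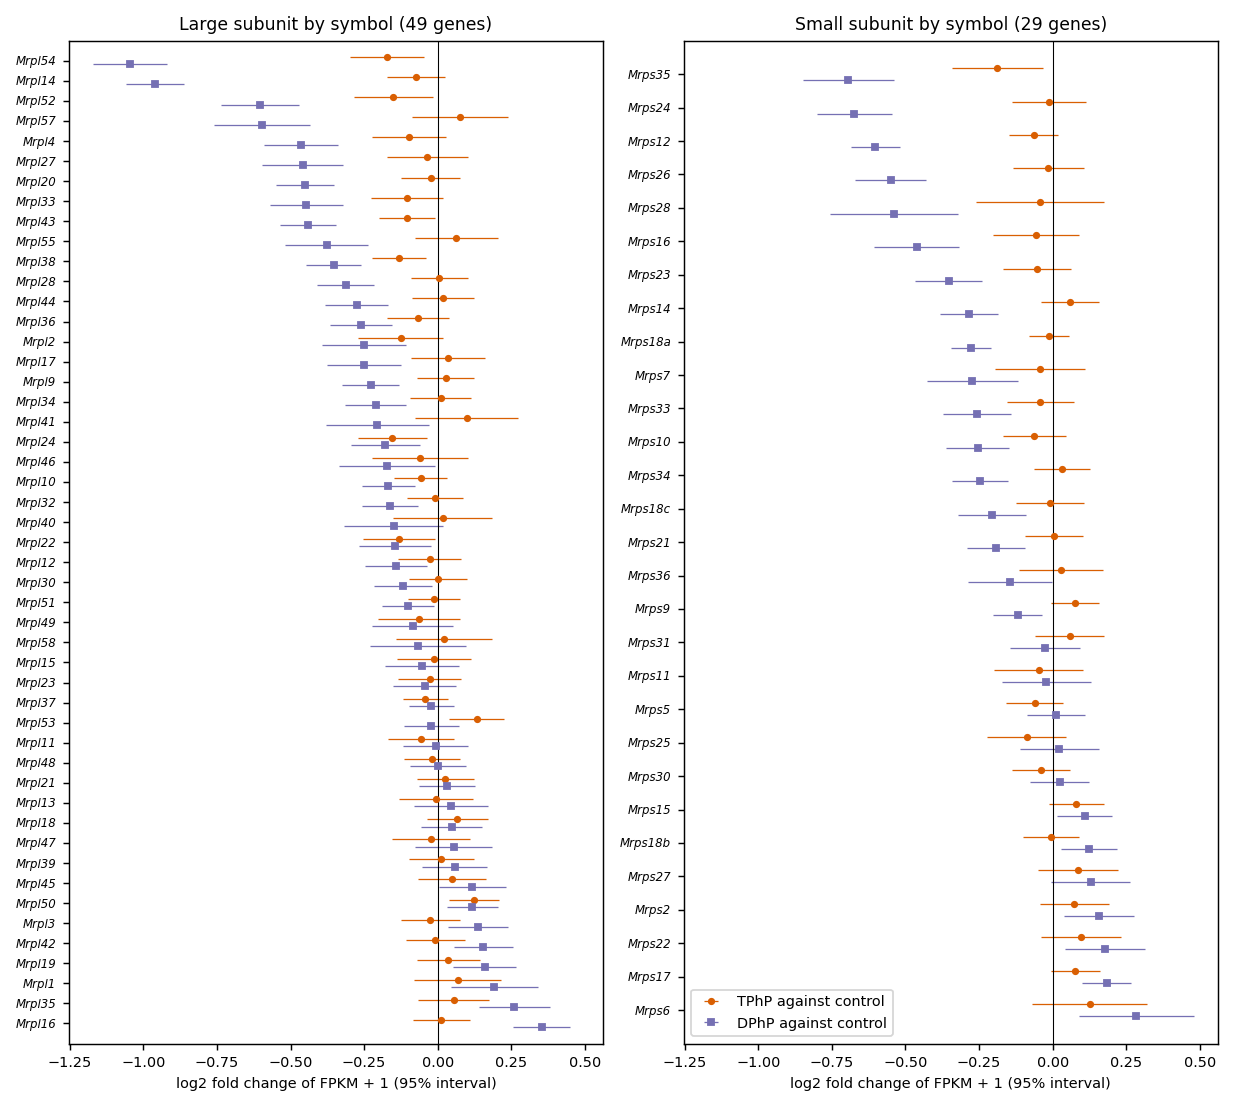
Log2 fold change of FPKM + 1 with its 95% interval for each of the 49 large-subunit genes (left) and 29 small-subunit genes (right), for TPhP against control (circles) and DPhP against control (squares). TPhP points stay between -0.19 and 0.13, while DPhP points run from -1.05 for Mrpl54 to 0.35 for Mrpl16.

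The 2 subunits answered DPhP alike in direction. Of the 49 large-subunit genes 7 (14.3%) rose and 26 (53.1%) fell, with a median of -0.15. Of the 29 small-subunit genes 6 (20.7%) rose and 16 (55.2%) fell, with a median of -0.19. Over all tested genes 33.1% rose and 37.9% fell, with a median of -0.02. Leaving out DPhP 1 or control 1 gave 4 large-subunit rises, and leaving out DPhP 2 or control 1 gave 3 small-subunit rises. Structures of the mammalian ribosome place the proteins of Mrps18a and Mrps30 in the large subunit, and Mrps36 in another complex. Sorted that way, 7 of 51 large-subunit genes rose and 27 fell, and 6 of 26 small-subunit genes rose and 15 fell. After the GC and length correction the split was 11 higher and 15 lower for the large and 9 higher and 8 lower for the small subunit by symbol. As shares these were 22.4% and 30.6% of the large and 31% and 27.6% of the small subunit, against 33.2% and 32.8% of all genes. Genes of the 2 subunits are not replicates, so these counts are a description with no test of the difference.

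**Figure D3:**
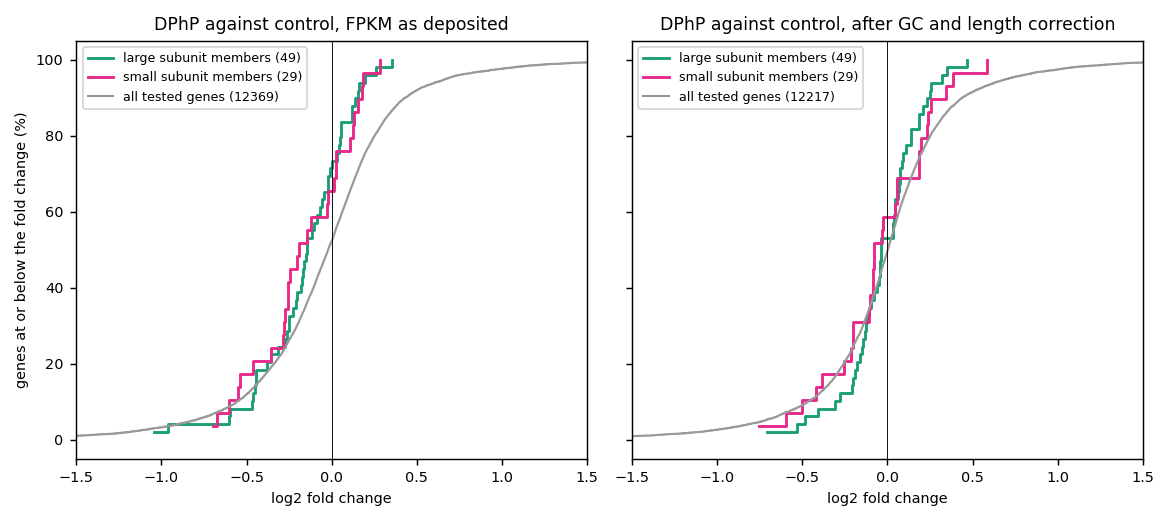
Percent of genes at or below a given log2 fold change for DPhP against control, for the 49 large-subunit genes, the 29 small-subunit genes and all tested genes, in FPKM as deposited (left) and after the GC and length correction (right). At left both subunit curves lie left of the curve of all genes around the middle, with medians of -0.15 and -0.19 against -0.02, and at right they lie close to it; members lack the long tails of all genes.

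The DPhP response varied with properties of the transcript. Over the 78 members the fold change had a Pearson correlation of -0.42 with GC content and 0.32 with log2 transcript length, where all tested genes gave -0.20 and 0.22. The genes share all 9 libraries and are not independent, so these are descriptions. The 42 members that fell had a median GC content of 52.1% and a median length of 1110 bases, and the 13 that rose 46.7% and 2080 bases. Mitochondrial ribosomal protein genes have short transcripts, with a median of 1328 bases against 3128 over all tested genes. The part of GC content and length in the DPhP decreases was not tested beyond the correction above.

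**Figure D4:**
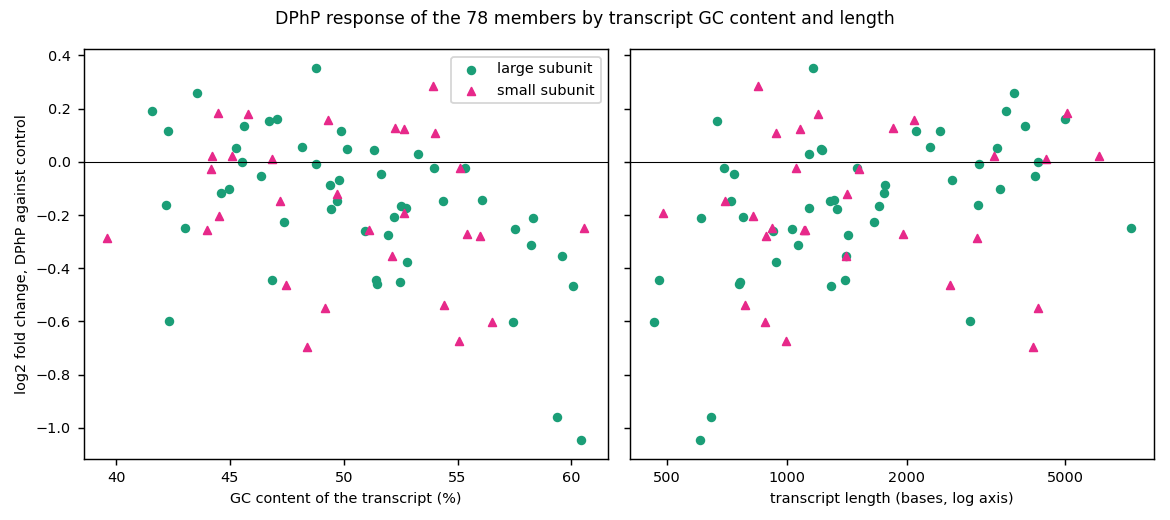
Log2 fold change of each member for DPhP against control, by transcript GC content (left, percent) and transcript length (right, bases, log axis), for large-subunit (circles) and small-subunit genes (triangles). Fold changes decline with GC content (r = -0.42) and the 2 lowest points, Mrpl54 and Mrpl14, have GC contents of 60.4% and 59.4% and lengths of 604 and 645 bases.

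The deepest fall was that of Mrpl54, a large-subunit gene whose protein has no bacterial relative (chromosome 10, 81264722 to 81266926, minus strand, GRCm38.p6). It had 35.4, 40.3 and 39.4 FPKM in TPhP libraries, 21.1, 21.5 and 18.9 FPKM in DPhP libraries and 42.8, 45.4 and 41.95 FPKM in control libraries. The DPhP libraries lay far below all others, and the TPhP libraries also lay below all control libraries without passing the test. The DPhP fold change was -1.05 (standard error 0.0570, adjusted p = 1.55e-08).

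Mrpl14 codes for a protein of the universal uL14 family at the interface of the subunits and lies on chromosome 17, 45685722 to 45698495, plus strand. It had 36.01, 32.9 and 35.9 FPKM in TPhP libraries, 19.1, 17.9 and 18.3 FPKM in DPhP libraries and 37.3, 38.4 and 34.9 FPKM in control libraries. DPhP libraries were below all others, and TPhP and control libraries overlapped. Its DPhP fold change was -0.96 (standard error 0.0449, adjusted p = 4.26e-09). Antisense exons of Tmem63b cover 11.2% of its exon bases. In human cells the assembly factor MALSU1 binds this protein, and Malsu1 fell too, averaging 17.6 ± 1.88 FPKM in TPhP, 11.1 ± 0.919 FPKM in DPhP and 16.6 ± 0.587 FPKM in control (SD, n = 3 each), with a DPhP fold change of -0.54 (standard error 0.0702, adjusted p = 2.71e-05).

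Mrpl52, mitochondrion-specific and on chromosome 14, 54426909 to 54429750, plus strand, had 45.2, 41.04 and 38.4 FPKM in TPhP libraries, 30.4, 31.4 and 28.4 FPKM in DPhP libraries and 48.7, 46.9 and 42.97 FPKM in control libraries. Every DPhP library was below every other library. The fold change of -0.60 (standard error 0.0609, adjusted p = 3.28e-06) was not called after the GC and length correction, where it was -0.10. Mrpl57 codes for a small mitochondrion-specific protein and lies on chromosome 14, 57826228 to 57829087, plus strand. It had 7.52, 6.66 and 7.73 FPKM in TPhP libraries, 4.32, 4.49 and 3.82 FPKM in DPhP libraries and 7.38, 7.14 and 6.15 FPKM in control libraries. DPhP libraries were the lowest throughout, with a fold change of -0.60 (standard error 0.0746, adjusted p = 2.02e-05), and after the correction it was -0.71.

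In the small subunit the largest fall was that of Mrps35, a mitochondrion-specific gene on chromosome 6, 147042728 to 147070906, plus strand. It had 20.9, 20.2 and 18.5 FPKM in TPhP libraries, 13.1, 15.6 and 12.4 FPKM in DPhP libraries and 22.5, 23.6 and 22.2 FPKM in control libraries. The groups were fully separated, DPhP lowest and control highest. The DPhP fold change was -0.69 (standard error 0.0706, adjusted p = 3.51e-06). Mrps24 codes for the counterpart of bacterial S3 and lies on chromosome 11, 5703982 to 5707701, minus strand. It had 24.8, 26.3 and 24.4 FPKM in TPhP libraries, 15.6, 16.1 and 14.9 FPKM in DPhP libraries and 25.9, 27.4 and 22.9 FPKM in control libraries. DPhP libraries were below all others and the TPhP and control libraries overlapped, with a DPhP fold change of -0.67 (standard error 0.0576, adjusted p = 7.84e-07). A same-strand exon of Urgcp covers 15.4% of its exon bases.

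Mrps12, the counterpart of bacterial S12 at the decoding centre, had 23.2, 22.4 and 22.3 FPKM in TPhP libraries, 15.4, 15.3 and 15.2 FPKM in DPhP libraries and 23.9, 24.9 and 22.5 FPKM in control libraries. Its DPhP libraries were nearly identical and below all others, with a fold change of -0.60 (standard error 0.0381, adjusted p = 5.48e-08). Mrps26, mitochondrion-specific, averaged 17.8 ± 0.852 FPKM in TPhP, 11.9 ± 0.318 FPKM in DPhP and 17.98 ± 1.46 FPKM in control (SD, n = 3 each), a DPhP fold change of -0.55 (standard error 0.0551, adjusted p = 3.12e-06). Mrps28, the relative of bacterial S1, had 16.2, 14.8 and 15.2 FPKM in TPhP libraries, 12.4, 8.98 and 10.8 FPKM in DPhP libraries and 17.5, 16.5 and 13.9 FPKM in control libraries, again lowest in DPhP without overlap, but with a wide spread among its DPhP libraries and a fold change of -0.54 (standard error 0.0989, adjusted p = 0.000446) that was -0.21 and not called after the correction.

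After the GC and length correction the DPhP fold change was -0.53 for Mrpl54, -0.48 for Mrpl14, -0.75 for Mrps35, -0.38 for Mrps24 and -0.26 for Mrps12, and all 5 stayed called lower. The values of Mrpl54, Mrpl14, Mrps24 and Mrps12 were smaller than before the correction, and that of Mrps35 was not.

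Rises with DPhP were smaller than falls. The largest was that of Mrpl16, which codes for the counterpart of bacterial L16 (chromosome 19, 11770415 to 11774956, plus strand). It had 14.7, 15.04 and 14.2 FPKM in TPhP libraries, 18.8, 19.7 and 18.1 FPKM in DPhP libraries and 14.9, 13.7 and 14.97 FPKM in control libraries. The DPhP libraries were above all others and the TPhP and control libraries overlapped. The fold change was 0.35 (standard error 0.0438, adjusted p = 1.93e-05), and 0.47 after the correction. Mrpl35, the bacterial L35 relative (chromosome 6, 71812997 to 71823784, minus strand) and among the least abundant members, had 4.50, 4.11 and 4.56 FPKM in TPhP libraries, 5.26, 5.26 and 5.11 FPKM in DPhP libraries and 4.51, 4.10 and 3.97 FPKM in control libraries. DPhP was again highest without overlap, with a fold change of 0.26 (standard error 0.0548, adjusted p = 0.00122), and 0.14 after the correction.

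Mrps6, a relative of bacterial S6, had 13.4, 12.1 and 14.9 FPKM in TPhP libraries, 12.8, 16.9 and 15.8 FPKM in DPhP libraries and 12.2, 11.9 and 12.5 FPKM in control libraries. All DPhP libraries were above all control libraries but spread widely and overlapped those of TPhP. The fold change of 0.28 (standard error 0.0887, adjusted p = 0.0134) was not called without DPhP 2, and was 0.58 after the correction. Same-strand exons of other genes, among them Slc5a3, cover 19.9% of its exon bases. Mrpl1, whose family forms the stalk beside the tRNA exit site of bacterial ribosomes, had 8.54, 7.95 and 9.19 FPKM in TPhP libraries, 10.4, 8.60 and 9.25 FPKM in DPhP libraries and 7.76, 8.45 and 8.12 FPKM in control libraries. The DPhP libraries were above control and overlapped TPhP. Its fold change of 0.19 (standard error 0.0673, adjusted p = 0.0232) was not called without DPhP 1 or without control 1, nor after the correction, where it was 0.06.

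Mrps17, the counterpart of bacterial S17, had 27.96, 30.1 and 28.1 FPKM in TPhP libraries, 31.2, 32.2 and 29.7 FPKM in DPhP libraries and 27.1, 27.5 and 26.9 FPKM in control libraries. Both TPhP and DPhP libraries lay above all control libraries, with a DPhP fold change of 0.18 (standard error 0.0377, adjusted p = 0.001) and a TPhP fold change of 0.08 that did not pass the test (adjusted p = 0.264). After the correction the DPhP value was 0.05 and not called.

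**Figure D5:**
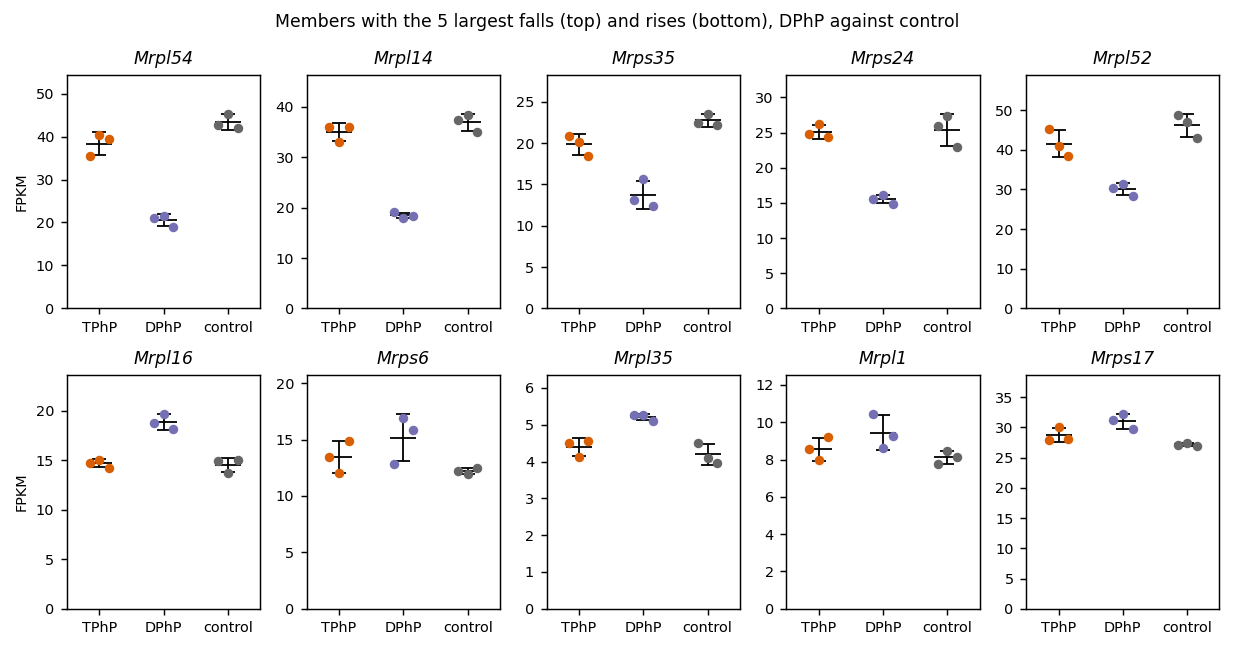
FPKM in each library (points) with the mean and SD of each group (bars, n = 3) for the 5 members with the largest falls (top) and the 5 with the largest rises (bottom) with DPhP. In the top panels the DPhP points lie below all TPhP and control points, for example 18.9 to 21.5 FPKM against 42.0 to 45.4 FPKM in control for Mrpl54, and in the bottom panels they lie above control by smaller steps.

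Mammals carry 3 relatives of the bacterial S18 gene, and with DPhP the calls of their transcripts differed in direction, with limits for each. Mrps18a, whose protein sits in the large subunit, had 27.2, 26.3 and 26.9 FPKM in TPhP libraries, 21.96, 22.1 and 22.2 FPKM in DPhP libraries and 27.7, 26.2 and 27.1 FPKM in control libraries. DPhP libraries were below all others, with a fold change of -0.28 (standard error 0.0310, adjusted p = 7.72e-06), which turned to 0.06 and was not called after the GC and length correction. Mrps18c, which takes the place of S18 in the small subunit, fell, with 48.1, 43.2 and 45.4 FPKM in TPhP, 39.1, 42.2 and 37.8 FPKM in DPhP and 44.6, 44.1 and 49.05 FPKM in control libraries. The DPhP libraries were lowest without overlap, at a fold change of -0.21 (standard error 0.0528, adjusted p = 0.00443), a call lost with a common FPKM sum and after the correction, where it was -0.08. Mrps18b rose, with 18.1, 17.3 and 18.4 FPKM in TPhP, 20.4, 19.7 and 19.1 FPKM in DPhP and 16.9, 18.4 and 18.7 FPKM in control libraries. DPhP was highest without overlap, at 0.12 (standard error 0.0434, adjusted p = 0.0236), a call lost without DPhP 1 or control 1, and at 0.34 after the correction. For Mrps18b 39.5% of the sequence is unique to the gene, so its level is uncertain.

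Among other members with a particular role, the fall of Mrpl44 held in each alternative fit, while the calls of Mrpl12 and Mrpl10 did not. Mrpl12, the stalk protein that recruits translation factors, had 30.1, 29.3 and 28.1 FPKM in TPhP libraries, 26.1, 28.1 and 26.3 FPKM in DPhP libraries and 31.02, 27.5 and 30.8 FPKM in control libraries. It was called lower with DPhP, at -0.14 (standard error 0.0481, adjusted p = 0.0193), with overlapping libraries, and its sign turned to 0.11 after the correction. Mrpl10, on which the stalk is anchored, averaged 28.3 ± 1.13, 26.1 ± 1.35 and 29.5 ± 0.652 FPKM in TPhP, DPhP and control, and was called lower at -0.17 (standard error 0.0416, adjusted p = 0.00349), a call lost after the correction (-0.04). Mrpl44, a relative of ribonuclease III, had 13.6, 13.5 and 14.2 FPKM in TPhP libraries, 11.3, 11.1 and 10.7 FPKM in DPhP libraries and 13.7, 12.5 and 14.5 FPKM in control libraries. It fell without overlap, at -0.28 (standard error 0.0486, adjusted p = 0.000332), and stayed called after the correction at -0.13.

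Mrpl45, at the exit of the peptide tunnel where the ribosome meets the inner membrane, had 10.97, 11.9 and 11.3 FPKM in TPhP libraries, 11.8, 12.4 and 11.9 FPKM in DPhP libraries and 10.3, 10.8 and 11.96 FPKM in control libraries. The groups overlapped, and the DPhP fold change was 0.12 (95% interval 0.00 to 0.23, adjusted p = 0.0632). Mrpl58, related to release factors and able to free peptides from stalled ribosomes, had 26.5, 25.8 and 23.2 FPKM in TPhP libraries, 23.3, 23.7 and 23.6 FPKM in DPhP libraries and 26.2, 27.1 and 21.4 FPKM in control libraries, with all groups overlapping and a DPhP fold change of -0.07 (95% interval -0.23 to 0.09, adjusted p = 0.423). Mrpl41, whose human protein was reported to bind BCL2, averaged 7.09 ± 0.297 FPKM in TPhP, 5.56 ± 0.545 FPKM in DPhP and 6.58 ± 0.849 FPKM in control (SD, n = 3 each) and was called lower with DPhP at -0.21 (standard error 0.0794, adjusted p = 0.036), with overlapping libraries and the opposite sign (0.07) after the correction.

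Mrps30, whose protein is found in the large subunit, had 14.6, 15.01 and 14.4 FPKM in TPhP libraries, 15.6, 14.3 and 16.3 FPKM in DPhP libraries and 14.7, 15.5 and 15.1 FPKM in control libraries. No group stood apart, and its DPhP fold change was 0.02 (95% interval -0.08 to 0.12, adjusted p = 0.655). Mrps36, whose protein was reassigned to the 2-oxoglutarate dehydrogenase complex of the citric acid cycle, had 32.9, 33.9 and 30.1 FPKM in TPhP libraries, 30.2, 26.02 and 29.3 FPKM in DPhP libraries and 32.9, 33.1 and 28.96 FPKM in control libraries. Groups overlapped here too, with a DPhP fold change of -0.15 (95% interval -0.29 to -0.00, adjusted p = 0.0635).

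Set directly against each other, TPhP and DPhP differed for 46 of the 78 members: 39 were higher with TPhP and 7 lower, where 37.8% and 30.9% of all tested genes were. Without doses and times it is not known whether the 2 exposures were matched. The median difference was 0.12 over the members and 0.03 over all tested genes, and it turned to -0.01 after the GC and length correction, with 22 members higher and 15 lower against 32.7% and 33.6% of all genes. With a common FPKM sum 33 were higher and 16 lower, against 30.7% and 38.6%. Libraries of the 2 exposures did not overlap for 37 members higher with TPhP and 7 lower, where 38.9% and 32.8% of all genes, 71.8% together, did not. A difference of at least 0.5 was called for 7 members, all higher with TPhP, against 11.3% of all genes higher and 7.91% lower. The largest positive differences were those of Mrpl14, at 0.89 (95% interval 0.79 to 0.98, adjusted p = 8.33e-09), and Mrpl54, at 0.87 (standard error 0.0570, adjusted p = 7.62e-08), followed by Mrpl57 (0.67), Mrps24 (0.66) and Mrps12 (0.54). After the correction these 5 were 0.46, 0.41, 0.74, 0.41 and 0.23, all still called. The largest negative ones were those of Mrpl16, at -0.34 (95% interval -0.44 to -0.24, adjusted p = 2.71e-05), and Mrpl35, at -0.21 (95% interval -0.33 to -0.08, adjusted p = 0.0057). After the correction Mrpl16 was at -0.46, and Mrpl35, at -0.13, was no longer called.

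Mrpl42, mitochondrion-specific, followed at -0.16 with libraries that overlapped between the compounds. Mrpl3, the counterpart of bacterial L3 near the peptidyl transferase centre, was next, also at -0.16, with 26.7, 25.8 and 25.9 FPKM in TPhP libraries, 29.9, 28.4 and 29.6 FPKM in DPhP libraries and 24.5, 28.1 and 27.4 FPKM in control libraries. The DPhP libraries were above all others, and the difference was -0.09 and not called after the correction. Mrps18b had a difference of -0.13 that was not called without TPhP 2 or without DPhP 1 and was -0.33 after the correction. Mrpl19 had a difference of -0.12, a call lost in 10 alternatives, among them the correction (-0.06) and the omission of TPhP 2, TPhP 3 or any DPhP library. For the other 32 members the difference between the compounds did not pass the test, and as examples it was 0.02 (95% interval -0.09 to 0.14, adjusted p = 0.704) for Mrpl24 and 0.02 (95% interval -0.09 to 0.12, adjusted p = 0.761) for Mrpl23. The comparisons of TPhP and of DPhP with control share the 3 control libraries.

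Sorted by origin, 10 of the 48 members of bacterial ribosomal protein families rose with DPhP and 29 fell, with a median of -0.17. Of the 30 mitochondrion-specific members 3 rose and 13 fell, with a median of -0.12. Over all tested genes 33.1% rose and 37.9% fell. After the GC and length correction 13 of the 48 were higher and 13 lower, with a median of -0.04. Of the mitochondrion-specific members, 4 of 19 in the large subunit were then higher and 6 lower. In the small subunit 3 of 11 were higher and 4 lower. The corrected shares of all genes were 33.2% and 32.8%. This sorting was made after the values were seen and carries no test. Sequence shared with other genes touched some members: of the 56 with at least 90% unique sequence 9 rose and 33 fell, and of the 45 without exon overlap with another gene 9 rose and 26 fell. The unique share was lowest for Mrpl53 (0%), Mrps25 (27.1%), Mrpl23 (34.6%), Mrps18b (39.5%) and Mrps34 (49.1%).

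Promoters of mitochondrial ribosomal protein genes are known for sites of ETS factors such as GABP, of NRF1 and of YY1. RefSeq promoter sequences of GRCm38.p6, from 250 bases before to 50 after the start, were matched for 69 of the 78 genes. Searched on both strands, the ETS motif CCGGAAG was found in 26 of them (37.7%), against 20.3% of tested genes and 9.93% of all genes in the table. The NRF1 motif (GCGC, any base, TGCGC) was found in 13 (18.8%), against 11.5% and 5.19%, and the YY1 motif AAGATGGC in 12 (17.4%), against 5.26% and 3.19%. No ETS match overlapped a YY1 match. By DPhP response, NRF1 matches lay in 11 of 36 promoters of members that fell, 0 of 12 of those that rose and 2 of 21 of those not called. ETS matches lay in 17 of 36, 3 of 12 and 6 of 21. YY1 matches lay in 6 of 36, 2 of 12 and 4 of 21, with similar shares in each. Over all tested genes the median DPhP fold change was -0.02 with and -0.03 without an NRF1 match. It was -0.05 with and -0.02 without an ETS match, and -0.04 and -0.02 for YY1. A match is a run of letters and not evidence of binding.

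The 150 bases before the start are shown for members whose DPhP call was lost in no alternative fit that tested them, with NRF1 and ETS matches in capitals. Of the 18 such falls 16 had a promoter entry: 4 windows held an NRF1 match, 4 an ETS match and 8 neither. Of these 8, some had a match outside the window, in the longer sequence searched above: Mrpl14 for NRF1, and Mrpl33, Mrps12, Mrps23 and Mrps33 for ETS. Mrpl20, Mrps14 and Mrps24 had neither there. The 3 such rises held neither in the window or in the longer sequence. Mrpl57, Mrpl44 and Mrpl17 show an NRF1 match and Mrpl43 2 ETS matches. Mrpl14 and Mrps24, the deepest such falls with an entry, show neither within the window. The Mrpl14 window precedes a start inside the gene's span, which begins at 45685722. Bases before that position were not searched, so the lack of a match does not cover them. Mrpl16 and Mrpl35 are the 2 largest such rises.
Mrpl57, chr14:57826089-57826238, plus strand: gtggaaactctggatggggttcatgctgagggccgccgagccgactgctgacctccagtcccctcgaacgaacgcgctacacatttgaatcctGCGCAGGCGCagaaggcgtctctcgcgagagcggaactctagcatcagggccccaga
Mrpl44, chr1:79775868-79776017, plus strand: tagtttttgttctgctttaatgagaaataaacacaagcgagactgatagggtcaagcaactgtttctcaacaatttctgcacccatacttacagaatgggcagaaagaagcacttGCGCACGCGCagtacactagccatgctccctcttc
Mrpl17, chr7:105811088-105811237, minus strand: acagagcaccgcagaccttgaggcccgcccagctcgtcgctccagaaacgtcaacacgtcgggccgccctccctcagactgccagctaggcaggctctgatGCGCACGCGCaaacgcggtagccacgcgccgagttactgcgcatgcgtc
Mrpl43, chr19:45006443-45006592, minus strand: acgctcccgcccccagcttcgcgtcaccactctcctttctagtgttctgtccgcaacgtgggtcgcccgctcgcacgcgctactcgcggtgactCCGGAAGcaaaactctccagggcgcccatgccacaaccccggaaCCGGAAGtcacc
Mrpl14, chr17:45686199-45686348, plus strand: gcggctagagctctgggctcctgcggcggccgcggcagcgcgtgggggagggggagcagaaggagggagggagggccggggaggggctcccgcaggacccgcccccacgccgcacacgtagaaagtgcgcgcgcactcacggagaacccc
Mrps24, chr11:5707702-5707851, minus strand: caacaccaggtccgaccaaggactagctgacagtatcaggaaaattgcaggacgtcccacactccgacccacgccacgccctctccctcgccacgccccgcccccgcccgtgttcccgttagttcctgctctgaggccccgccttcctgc
Mrpl16, chr19:11770265-11770414, plus strand: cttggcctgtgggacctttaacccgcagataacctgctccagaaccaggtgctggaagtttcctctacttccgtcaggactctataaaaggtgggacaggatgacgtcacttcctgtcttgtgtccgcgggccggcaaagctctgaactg
Mrpl35, chr6:71823785-71823934, minus strand: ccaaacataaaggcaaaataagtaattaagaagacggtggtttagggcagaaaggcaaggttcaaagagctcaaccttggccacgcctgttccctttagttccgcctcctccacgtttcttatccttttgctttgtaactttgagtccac

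The DPhP fold change was -0.60 for Mrpl57, -0.28 for Mrpl44, -0.25 for Mrpl17 (-0.41 after the correction) and -0.44 for Mrpl43. Mrpl17, the counterpart of bacterial L17, had 7.05, 8.33 and 7.49 FPKM in TPhP libraries, 6.34, 5.78 and 6.08 FPKM in DPhP libraries and 7.20, 7.66 and 7.34 FPKM in control libraries. Mrpl43, mitochondrion-specific, had 23.1, 24.3 and 21.7 FPKM in TPhP libraries, 18.9, 17.5 and 17.6 FPKM in DPhP libraries and 24.5, 25.1 and 24.8 FPKM in control libraries. For both, DPhP libraries were lowest without overlap. Antisense exons of Twnk, itself called lower with DPhP (-0.26), cover 33.4% of the exon bases of Mrpl43. Reads of this pair cannot be told apart without knowing the strand use. Of the genes for the factors themselves, Nrf1 averaged 10.3 ± 0.533 FPKM in TPhP, 10.7 ± 0.285 FPKM in DPhP and 10.8 ± 0.247 FPKM in control (SD, n = 3 each), a DPhP fold change of -0.01 (standard error 0.0430, adjusted p = 0.806). Gabpa, the DNA-binding part of GABP, rose with DPhP by 0.14 (standard error 0.0489, adjusted p = 0.0224), a call lost after the correction (-0.01), and Yy1 fell, at -0.17 (standard error 0.0481, adjusted p = 0.00804).

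Of 5 further subunits without an Mrp symbol, 1 rose and 2 fell with DPhP. For this and the lists that follow, the shares over all tested genes were 33.1% higher and 37.9% lower with DPhP and 6.22% called with TPhP. Ptcd3, an RNA-binding protein of the small subunit, rose by 0.24 (standard error 0.0351, adjusted p = 7.35e-05), or 0.15 after the correction. Aurkaip1, a small-subunit protein, averaged 28.5 ± 1.16 FPKM in TPhP, 23.04 ± 0.443 FPKM in DPhP and 31.5 ± 0.424 FPKM in control (SD, n = 3 each), with fold changes of -0.14 (standard error 0.0342, adjusted p = 0.0334) for TPhP and -0.43 (standard error 0.0342, adjusted p = 3.78e-07) for DPhP; after the correction the first was -0.10 and not called, and the second -0.15. Gadd45gip1, of the large subunit, had a DPhP fold change of -0.18 (standard error 0.0682, adjusted p = 0.0351), not called after the correction (-0.05). Dap3, a GTP-binding small-subunit protein, had -0.03 and Chchd1 -0.09, and neither passed the test, though Chchd1 was called higher after the correction (0.15).

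Of 27 assembly factors measured, 5 rose and 8 fell with DPhP and none was called with TPhP. That is 48.1% called with DPhP (18.5% higher and 29.6% lower), a smaller share than the 71% of all tested genes. Mpv17l2, which is needed for subunit assembly in human cells, averaged 26.1 ± 0.497 FPKM in TPhP, 14.8 ± 0.0666 FPKM in DPhP and 27.6 ± 1.15 FPKM in control (SD, n = 3 each), a DPhP fold change of -0.86 (standard error 0.0347, adjusted p = 1.28e-09), which was -0.43 and still called after the correction. Ndufab1, the mitochondrial acyl carrier protein, had -0.46 (standard error 0.0347, adjusted p = 2.72e-07), the RNA helicase gene Ddx28 -0.55 (standard error 0.0511, adjusted p = 1.52e-06) and Ngrn -0.38 (standard error 0.0416, adjusted p = 6.12e-06), which was -0.23 after it. With that correction 9 of the list were higher and 5 lower.

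Of 19 translation factors tested, 2 rose and 7 fell with DPhP, 10.5% and 36.8%, again a smaller share in all (47.4%) than over all tested genes. After the GC and length correction Metap1d, Taco1, Lrpprc and C1qbp were called higher, and Tsfm, Gfm1, Mtrf1, Mtrf1l and Oxa1l lower. C1qbp had been called lower before it (-0.12) and was at 0.08 after it. Oxa1l, which inserts new proteins into the inner membrane, had a DPhP fold change of -0.45 (standard error 0.0341, adjusted p = 2.61e-07). The elongation factor gene Tsfm had -0.35 (standard error 0.0704, adjusted p = 0.000908), or -0.22 after the correction. Its partner Tufm had -0.15 (standard error 0.0317, adjusted p = 0.000976), which turned to 0.04 and was not called after it. Lrpprc, which stabilises mitochondrial messages, rose by 0.30 (standard error 0.0606, adjusted p = 0.000948). Tsfm was also the 1 translation factor called with TPhP, at -0.26 (standard error 0.0704, adjusted p = 0.0498).

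Of 24 genes of mitochondrial transcription and RNA processing tested, 9 rose and 7 fell with DPhP, 37.5% and 29.2%, near the shares over all tested genes. Hsd17b10, a subunit of the mitochondrial RNase P, had -0.73 (standard error 0.0415, adjusted p = 2.34e-08), while Prorp, the nuclease subunit of the same enzyme, had 0.42 (standard error 0.0626, adjusted p = 9.57e-05). Pnpt1, a ribonuclease, had 0.47 (standard error 0.0427, adjusted p = 1.40e-06) and Mterf1a 0.49 (standard error 0.0654, adjusted p = 3.82e-05). Mterf1a was called with TPhP as well, at 0.35 (standard error 0.0654, adjusted p = 0.00897). Of 12 regulators tested, 4 rose and 4 fell, 33.3% each and also near all genes: Esrra, an orphan nuclear receptor acting on respiratory genes, had -0.70 (standard error 0.0477, adjusted p = 1.06e-07) and -0.40 after the correction, Ppara -0.58 (standard error 0.0647, adjusted p = 8.07e-06), the coactivator gene Pprc1 0.47 (standard error 0.0409, adjusted p = 9.83e-07) and Sp1 0.20 (standard error 0.0300, adjusted p = 8.93e-05), a call lost after the correction (0.05). With TPhP, Myc was called lower, at -0.20 (standard error 0.0493, adjusted p = 0.0339).

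Complex I holds products of the mitochondrial ribosome beside nuclear-encoded subunits, and the proteins of the mitochondrial ribosome are made on cytosolic ribosomes. For complex I, 39 tested genes were chosen by their Nduf symbol alone, so not each need code for a complex I subunit. Ndufab1 of the assembly list is among them. Of the 39, 3 rose and 33 fell with DPhP, with a median of -0.46. After the GC and length correction 6 were higher and 24 lower, with a median of -0.17. Of 80 cytosolic ribosomal protein genes, 15 rose and 44 fell, with a median of -0.13, and after the correction 43 were higher and 14 lower, with a median of 0.13. The mitochondrial ribosomal protein genes had medians of -0.15 before and -0.04 after the correction. The first was close to the -0.13 of the cytosolic genes, and the second lay between both families. Of all genes 33.2% were higher and 32.8% lower after the correction.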

How the data were processed

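Gene expression was measured by RNA sequencing of oligo(dT)-selected RNA in 9 libraries of mouse primary Leydig cells. The authors deposited 1 table of FPKM values per gene. The build was GRCm38.p6, per the submitters' processing notes; for the aligner, counter, strand use and depth the sources used here give nothing, so no counting interval was derived. FPKM is not a count, so no count model was fitted.

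The values were analysed as log2(FPKM + 1), which understates changes of low genes, with limma 3.58.1 in R 4.3.3: a mean per group over all 9 libraries, an intensity trend in the moderated variance, two-sided tests, and Benjamini-Hochberg adjustment over all 12369 tested genes at 0.05. The fit was tested on simulated data. The members, gene lists, tests and naming rule (the 5 largest called rises and falls without overlap per comparison, the 3 highest and 3 lowest control levels, 10 members chosen for their role, and called genes with the smallest p of related lists) were chosen with earlier results of these data known; Mrpl10, Mrpl17, Mrpl23, Mrpl24, Mrpl34, Mrpl38, Mrpl42, Mrpl43, Mrpl50, Mrpl53, Mrps26, Mrps28, Mrps34, Malsu1, Dap3, Chchd1, Nrf1, Gabpa and Yy1 were chosen after their values were seen. Gene positions came from RefSeq, and GC content, length, exon overlap and unique sequence (stretches of 75 bases in no other gene) from GENCODE M21, using numpy 2.4.6 and pandas 2.3.3 in Python 3.11.15; figures used matplotlib 3.10.9. Alternatives were pseudocounts of 0.1 and 0.5, no filter, a mean of at least 5 FPKM, 3 scalings, a replicate block, a fit to the 6 libraries compared, no variance trend, each library left out, a minimum fold change of 0.5, and, added after seeing the data, removal of lowess trends (span 0.5) with GC content and length.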

Additional observations from a re-analysis of the deposited data

How the results depend on the processing

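Counts and medians kept their direction under pseudocounts of 0.1 and 0.5, no filter, a mean of at least 5 FPKM, size factors, a fit to the 6 libraries compared and no variance trend, each count within 1.5 times that reported. With a common FPKM sum the DPhP median was -0.068 against 0.055 for all tested genes (large subunit -0.066, with 12 rises; small -0.108), and TPhP against DPhP gave 16 lower and a median of 0.053. Quantile normalization gave DPhP medians of -0.11 for the large and -0.12 for the small subunit. A minimum fold change of 0.5 left 9 DPhP calls, all lower (4 large, 5 small, 0 higher), and 7 TPhP against DPhP calls, all higher with 0 lower.

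After the GC and length correction TPhP had 1 call, a rise. DPhP had 20 rises and 23 falls (large 11 and 15, small 9 and 8) with medians of -0.036 (large -0.035, small -0.078); TPhP against DPhP had 22 higher and 15 lower with a median of -0.011. The DPhP fold changes of 14 members called before or after it changed sign, with and without the replicate block: Mrpl2 0.086, Mrpl12 0.11, Mrpl22 0.091, Mrpl23 0.23, Mrpl28 0.033, Mrpl34 0.26, Mrpl37 0.19, Mrpl41 0.073, Mrpl48 -0.11, Mrpl53 0.32, Mrps11 0.26, Mrps18a 0.057, Mrps21 0.20 and Mrps34 0.18. Of these, Mrpl23, Mrpl37, Mrpl48, Mrpl53 and Mrps11 were called only after the correction. The cause was not tested.

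The replicate block gave 1 TPhP call (Mrpl52, lower) and 55 DPhP calls, 13 higher and 42 lower. Together with the correction it gave 1 TPhP call, higher, 20 DPhP rises and 25 falls (large 11 and 16, small 9 and 9) at the same medians, and 23 higher and 16 lower for TPhP against DPhP. Correlations of the deviations of same-numbered libraries were -0.12 to 0.10, so the numbers were not treated as pairs.

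Leaving out 1 library gave 0 to 1 TPhP calls (0 to 1 higher, 0 to 1 lower; median -0.02 to 0.01). It gave 45 to 55 DPhP calls, 7 to 14 higher and 37 to 44 lower, with medians of -0.17 to -0.12. For the large subunit these were 4 to 8 and 21 to 27 (-0.17 to -0.12) and for the small 3 to 6 and 16 to 17 (-0.21 to -0.17). TPhP against DPhP gave 43 to 47 calls, 37 to 40 higher and 5 to 7 lower, with medians of 0.11 to 0.15. Depth is unknown, so it could not be weighed for members with low FPKM.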

Other observations

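Some mitochondrial ribosomal protein genes start back to back with another gene. Of the 78 members, 23 had a protein-coding neighbour on the other strand whose start lay within 1000 bases and that is transcribed away from them. Of these neighbours 22 were tested. Pairs whose gene spans overlapped widely were not counted, so 23 is a minimum. Mrpl46 and Mrps11, which lie back to back, are not among the 23. With DPhP, 16 of the 22 members of these pairs and 12 of their neighbours (4 higher and 8 lower) were called in limma, where 71% of all tested genes were, and in 9 pairs both genes were. Both fell in 6 pairs, both rose in 1 (Mrps18b with Ppp1r10, at 0.17 (adjusted p = 0.00422)), and 2 pairs went in opposite directions. Of the 6 members that fell with their neighbour, Mrpl44 and Mrpl54 stayed called lower after the GC and length correction. The calls of Mrpl2 (0.09), Mrpl36 (-0.05) and Mrpl41 (0.07) were lost, and Mrps34 was called higher (0.18).

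The opposite pairs were Mrpl57 with Ska3, a gene of chromosome segregation, and Mrpl51 with Ncapd2, a condensin subunit gene. Ska3 had 6.64, 5.49 and 5.83 FPKM in TPhP, 8.81, 7.98 and 8.69 FPKM in DPhP and 6.32, 6.89 and 6.37 FPKM in control libraries, highest in DPhP without overlap, at a fold change of 0.33 (adjusted p = 0.000576), against -0.60 for Mrpl57. Ncapd2 had a fold change of 0.27 (adjusted p = 0.000137), against -0.10 for Mrpl51, a call lost in 12 of 21 alternative fits and at -0.20 after the correction. Among pairs that fell together, Ndufs6, a complex I subunit gene beside Mrpl36, had 41.04, 41.4 and 36.6 FPKM in TPhP, 27.1, 27.96 and 21.3 FPKM in DPhP and 46.2, 41.6 and 37.3 FPKM in control libraries. Its fold change was -0.70 (adjusted p = 5.24e-05), against -0.26 for Mrpl36. Apba3, beside Mrpl54, had -0.24 (adjusted p = 0.00137), against -1.05 for Mrpl54, and was not called after the correction (0.03). Fau, which codes for a cytosolic ribosomal protein fused to a ubiquitin-like one, fell at -0.72 (adjusted p = 9.93e-10), or -0.25 after the correction, while Mrpl49 beside it had -0.09 and did not pass the test. These pairs were looked at after the values were seen, and no test of shared control was made.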
